A study of Mus musculus with 18 samples.

Results

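Small RNA libraries of mouse sperm contain reads that the study's annotation left without a name, and these unannotated reads are described here. They were taken as every row of the 4 sperm small RNA tables whose annotation field said that no annotation was found, and were divided by the table's own genome match field and by read length. Of the 207217 distinct sequences in the 4 tables, 157982 were unannotated, and they held 352274 of the 2358974 reads. The genome match field marked 101982 of them as matched and 56000 as unmatched. No sequence was unannotated in one table and annotated in another, and none changed its match field between tables. The lengths ran from 20 to 45 nucleotides.

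The study concerns Isca2, a gene for a mitochondrial protein of iron-sulphur cluster assembly, and also profiled embryos and oocytes. The sperm libraries form 2 groups, knockout (KO, labelled Isca2 -/-) and wild type (WT), with 2 libraries each. The labels give no strain, age or animal for the sperm and do not say whether the 2 libraries of a group came from separate males, so the spread within a group may be technical. They describe how embryos were collected and give nothing about how the sperm were purified. Small RNA tables cannot check the Isca2 deletion itself.

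Sperm carry little cytoplasm, and their small RNAs are known as a mixture of tRNA fragments, rRNA fragments, piRNAs and microRNAs. A piRNA is a small RNA bound by PIWI proteins in the germ line, and most primary piRNAs begin with U. Annotation of such reads works by comparison with lists of known RNAs, so a read can stay unnamed because it comes from elsewhere in the genome, because it runs past the end of a listed RNA, or because it differs from a listed RNA by a base or a tail. Reads of each of these 3 kinds were looked for among the unannotated sequences.

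The most abundant genome-matched sequences belonged to a nested set around one stretch of bases, shown in capitals in the first 4 lines below, which differ in where they start and end. M7 and M8 follow because they were the highest matched sequences outside that set. The sequences are written as DNA, 5′ to 3′.
M1: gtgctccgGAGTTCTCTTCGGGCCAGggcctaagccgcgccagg
M3: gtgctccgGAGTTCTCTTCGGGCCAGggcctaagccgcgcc
M5: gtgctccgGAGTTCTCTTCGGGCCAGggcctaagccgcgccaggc
M6: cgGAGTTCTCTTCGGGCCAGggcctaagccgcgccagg
M7: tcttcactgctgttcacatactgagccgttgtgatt
M8: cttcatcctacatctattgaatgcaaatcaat

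A second pair shows where the annotation of this set stopped. The second line was the longest abundant read labelled 45S rRNA, the precursor from which the 18S, 5.8S and 28S rRNAs are cut, and the first, unannotated, had 1 further base, in capitals.
unannotated: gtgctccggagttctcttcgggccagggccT
labelled 45S rRNA: gtgctccggagttctcttcgggccagggcc

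The most abundant unmatched sequences each differed by 1 base from a read with an annotation. The capitals mark the changed base, and each annotated read stands below its variants, that of 28 bases below U2.
U1: caaaaaacattagactgtgaatctgaA
mitochondrial tRNA-His, 27 bases: caaaaaacattagactgtgaatctgac
U2: caaaaaacattagactgtgaatctgacC
mitochondrial tRNA-His, 28 bases: caaaaaacattagactgtgaatctgaca
U3: gacgtggcgaAccgctgaatttaagc
U4: gacgtggcgacccgctgaatttCagc
U10: gacgtggcgacccgctgCatttaagc
28S rRNA: gacgtggcgacccgctgaatttaagc

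A last line shows an unannotated read in which the same tRNA-His fragment was followed by a repeated tail, in capitals. It is shown because it was the one unannotated sequence called lower in KO than in WT sperm.
tailed tRNA-His fragment: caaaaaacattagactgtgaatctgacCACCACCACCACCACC

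The libraries were unequal in depth and make-up. Library totals were 703133 and 746812 reads in KO sperm, against 205993 and 703036 reads in WT sperm, so WT replicate 1 was the shallowest. Reads labelled 28S rRNA made up 19.3% and 21.0% of KO libraries and 25.2% and 55.2% of WT libraries, which sets WT replicate 2 apart from the other 3. The spermatogenic microRNAs mir-34b, mir-34c and mir-449a had 0 reads in all 4 libraries. Of 4 blood microRNAs 1 had a read, in 1 library, and 4 epithelial microRNAs had 6 reads in all. Fragments of tRNA-Gly, abundant in sperm, were present at 1.38% and 1.73% of KO reads and 0.934% and 0.878% of WT reads.

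Unannotated reads numbered 103284 and 152035 in KO sperm and 35749 and 61206 in WT sperm. They were 14.7% and 20.4% of KO reads, against 17.4% and 8.71% of WT reads, and the groups overlapped. The means were 17.5% ± 4.01 in KO and 13.0% ± 6.12 in WT sperm (SD, n = 2 each), and the difference of 4.49 percentage points was within the spread between libraries (exact permutation test, two-sided, p = 0.667). With 2 libraries against 2 this test cannot give a p below 0.333. Unannotated reads were a larger part of the distinct sequences, at 69.3% and 72.3% in KO and 66.1% and 63.0% in WT sperm. The exact 95% interval of the shallowest library, WT replicate 1, ran from 17.2% to 17.5%, and such intervals cover counting error only, since the reads carry no molecular identifiers.

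The order of the libraries depended on whether rRNA reads were counted in the total. With all reads labelled as rRNA removed from the total, unannotated reads were 21.1% and 29.6% of KO and 26.8% and 27.3% of WT reads. WT replicate 2, the lowest library before, then lay between the 2 KO libraries, and the KO minus WT difference changed sign to -1.72 points.

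Genome-matched reads were the larger part of the unannotated reads in 3 libraries. They made up 55.1% and 74.0% of unannotated reads in KO and 55.1% and 48.5% in WT sperm, with means of 64.6% ± 13.3 and 51.8% ± 4.66 (SD, n = 2 each; exact permutation p = 0.333, the smallest possible). KO replicate 1 and WT replicate 1 were both at 55.1%, so the difference of 12.8 points rested on KO replicate 2 and WT replicate 2, and without KO replicate 2 it was 3.33 points. As a part of the whole library, matched unannotated reads were 8.10% and 15.1% in KO and 9.56% and 4.22% in WT sperm. Unmatched ones varied less, at 6.59% and 5.30% in KO and 7.80% and 4.48% in WT sperm. Among annotated reads, 72.1% and 70.04% were matched in KO and 65.03% and 33.1% in WT sperm. That was more than among unannotated reads in replicate 1 of each genotype and less in replicate 2 of each, and the leading 28S rRNA read, though annotated, was itself marked unmatched.

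Read length separated the matched from the unmatched sequences. Unmatched reads peaked at 27 nucleotides in both KO libraries and in WT replicate 1, with 18.6% and 17.2% of their reads in KO and 18.5% in WT sperm. In WT replicate 2 the peak was at 26 nucleotides, with 21.6% of reads, and 27 nucleotides held 7.33%. These are the lengths of the tRNA-His and 28S rRNA fragments shown above. Matched reads had no such peak, and no length held more than 6.11% of them in any library. The fewest matched reads were 43 nucleotides long, between 1.03% and 1.41% of reads over the 4 libraries.

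The 3 length classes of unannotated reads did not separate KO from WT sperm. Reads of 20 to 24 nucleotides were 20% and 21.5% in KO and 14.1% and 24.2% in WT sperm. Those of 25 to 31 nucleotides were 40.2% and 36.4% in KO and 39.7% and 37.9% in WT sperm. The longest class, 32 to 45 nucleotides, held 39.8% and 42.1% in KO and 46.2% and 37.9% in WT sperm. The groups overlapped in each class, and the differences were 1.65, -0.53 and -1.12 points (exact permutation p = 1.0 for each of the 3).

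Most unannotated sequences were seen once. As deposited, 67.5% and 59.5% of them in KO and 83.9% and 69.7% in WT sperm had a single read, with the highest share in the shallowest library. Drawn down to the same 205993 library reads by calculation, the shares were 83.8% and 81.7% in KO and 83.9% and 84.8% in WT sperm, and the groups did not overlap (difference -1.60 points, exact permutation p = 0.333). Annotated sequences at that depth had fewer single reads, 57.2% and 58.2% in KO and 59.6% and 59.1% in WT sperm. The number of distinct unannotated sequences at equal depth was 19430 and 26688 in KO and 21779 and 10901 in WT sperm. The WT libraries thus lay on either side of KO replicate 1, and the difference of 6719 sequences was within the spread (exact permutation p = 0.667). With the draw made on 35749 unannotated reads instead, the 4 libraries came closer, at 22312 and 23388 sequences in KO and 21779 and 19094 in WT sperm. In that draw the single-read shares were 82.1% and 83.7% in KO and 83.9% and 77.2% in WT sperm, so the groups overlapped and the difference turned to 2.26 points.

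Few unannotated sequences were found again in another library. Of them, 96.3% occurred in 1 library only, against 71.2% of annotated sequences. The 793 present in all 4 libraries held 26.4% of the unannotated reads, whereas 4103 annotated sequences present in all 4 held 93.3% of annotated reads. The matched part was the more scattered: 98.6% of matched sequences were in 1 library only and 144 were in all 4, which held 20.7% of matched reads. Among unmatched sequences 92.2% were in 1 library only, and the 649 in all 4 held 35.9% of the reads. Between 2 libraries, the number shared was highest for the KO pair, at 3016 sequences (6.09% of replicate 1 and 4.51% of replicate 2), and lowest for the WT pair, at 1401 (6.43% of replicate 1 and 4.94% of replicate 2). As a share of the smaller library it was higher between genotypes, with 7.91% of WT replicate 1 found in KO replicate 1.

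Sequences limited to 1 library had few reads. The highest matched one had 13 reads in each of the KO libraries, and 5 and 9 reads in WT replicates 1 and 2. Only 3 and 15 matched sequences limited to 1 KO library had 10 reads or more, and none did in the WT libraries. Unmatched sequences limited to 1 library reached 34 and 30 reads in KO and 26 and 19 in WT sperm, and 21 and 10 of them in KO and 4 and 3 in WT sperm had 10 reads or more. Overlap of sequences showed the same scatter. Of the matched sequences, 78.2% shared no run of 18 bases with any other sequence of the 4 tables, and these solitary sequences held 60.4% of matched unannotated reads. The same held for 29.5% of unmatched and 19.99% of annotated sequences. On the opposite strand, 1467 matched sequences, with 2.48% of the matched reads, shared an 18-base run with an annotated read.

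Among the matched sequences seen in every library, the set around M1 stood first. Together 105 sequences shared an 18-base run with M1, and they had 7385 and 19594 reads in KO and 3546 and 5746 reads in WT sperm. This was 13.0% and 17.4% of matched unannotated reads in KO and 18.01% and 19.4% in WT sperm. Of the 10 matched sequences with the highest mean level, 8 belonged to this set. M1 itself had 933 and 3629 reads in KO and 759 and 1019 reads in WT sperm. By library size, the set was at 10503 and 26237 reads per 1000000 library reads (RPM) in KO and 17214 and 8173 in WT sperm, so that the groups overlapped.

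The set continued into reads that the study did annotate. Beside its 36271 unannotated reads, 9138 reads labelled 45S rRNA and 107 labelled piRNA shared an 18-base run with M1. Reads containing the 18-base run of M1 that was most frequent among 45S-labelled reads fell into 2 parts by their 3′ end. All 26934 that ended past position 30, counted from 1 at the 5′ base of M1, were unannotated, and all 8964 that ended at or before it were labelled 45S rRNA. This held in each of the 4 libraries. The pair of sequences above shows the step: the unannotated 31-base read had 322 and 331 reads in KO and 62 and 178 in WT sperm, and the read labelled 45S rRNA, 1 base shorter, had 501 and 495 in KO and 66 and 144 in WT sperm. Among reads with this run, there were 1.61 and 3.59 unannotated reads per 45S-labelled read in KO and 5.85 and 3.59 in WT sperm. Most of the 45S rRNA reads in the tables lay here, 3225 of 3538 and 3999 of 4417 in KO and 501 of 547 and 1239 of 1355 in WT sperm.

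Starts and ends of the set were concentrated at few positions. Of its unannotated reads 41.9% began at position 1, 30.5% at the base before it and 19.6% at position 7. Position 44 was the most frequent 3′ end, with 36.3% and 45.6% of reads in KO and 47.9% and 42.8% in WT sperm. Position 41 followed, with 28.4% and 26.2% of reads in KO and 33.3% and 33.0% in WT sperm, so both KO libraries lay below both WT libraries.

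The 3′ end at position 45, 1 base beyond M1, was used more in both KO libraries. It took 13.8% and 16.2% of the set's reads in KO, against 5.81% and 5.88% in WT sperm, with means of 15.0% ± 1.70 and 5.85% ± 0.05 (SD, n = 2 each). The groups did not overlap (difference 9.17 points, exact permutation p = 0.333, the smallest possible). This position was singled out after its values had been seen. Among reads that began at position 1, as M1 and M5 do, 21.6% and 22.9% ended at position 45 in KO and 8.78% and 9.01% in WT sperm. Reads that began at position 7, as M6 does, gave 19.8% and 26.4% in KO and 10.7% and 11.8% in WT sperm. M5 had 619 and 1934 reads in KO and 141 and 203 in WT sperm, and its level was not called different by edgeR (log2 fold change 1.53 ± 0.89 SE, adjusted p = 0.516), nor was that of M1 (log2 fold change -0.03 ± 0.91 SE, adjusted p = 0.996). Tables end at 45 nucleotides, so a read that starts before position 1 and ends at position 45 could not be listed.

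M7 and its set had no tie to an annotated read. M7 had 782 and 633 reads in KO and 207 and 708 reads in WT sperm, which is 1112 and 848 RPM in KO and 1005 and 1007 in WT sperm, so the KO libraries lay on either side of the WT ones. All 2845 reads of the 29 sequences that shared an 18-base run with M7 were unannotated. M8 had 326 and 1230 reads in KO and 182 and 439 in WT sperm, or 464 and 1647 RPM in KO and 884 and 624 in WT sperm. Beside the 3153 unannotated reads of its set, 8 reads were labelled piRNA. Neither M7 nor M8 was called different (adjusted p = 0.901 and 0.981, edgeR).

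Unmatched reads were mostly close to annotated ones. A read was counted as related where it differed from an annotated sequence of the same library by 1 substitution or 1 inserted or missing base, extended one at either end, or lay within one. By this count 62.8% and 62.4% of unmatched reads in KO and 57.1% and 68.4% in WT sperm were related. Reads counted as substitutions made up 45.6% of unmatched reads in each KO library, and 41.4% and 48.1% in WT sperm. Those counted as 3′ extensions made up 11.1% and 10.6% in KO and 9.40% and 15.1% in WT sperm. These kinds can overlap. U2 is the 27-base tRNA-His read plus 1 base, yet it was counted as a substitution of the 28-base read. The changed base was the last one in 45.04% and 41.5% of substitution reads in KO and 45.98% and 24.1% in WT sperm. How many of these also extend a shorter annotated read was not counted. Substitutions may thus be overstated and 3′ extensions understated. Matched reads were related less often, 19.2% and 22.9% in KO and 23.1% and 23.4% in WT sperm, and 67.6% and 76.0% of these in KO and 77.9% and 82.8% in WT sperm were reads of the M1 set. The relative was labelled piRNA for 71.1% and 76.3% of related matched reads in KO and 34.4% and 35.6% in WT sperm. It was labelled 45S rRNA for 24.8% and 21.8% in KO and 63.5% and 63.2% in WT sperm. For a read that extends annotated ones, the relative was the longest of them in the same library, however few its reads. A rare relative can thus give its label to many reads, and only 107 piRNA-labelled reads shared a run with M1. The relative had more reads than the unannotated sequence for 12.5% and 7.44% of related matched reads in KO and 7.06% and 4.63% in WT sperm. Whether rare relatives made the difference in labels was not tested. Taken over all unannotated reads, 38.8% and 33.2% in KO and 38.4% and 46.6% in WT sperm were related, with overlapping groups (difference -6.51 points, exact permutation p = 0.667). Counting only annotated relatives with more reads than the unannotated one, which was added after seeing the data, the shares were 25.3% and 15.2% in KO and 22.98% and 31.2% in WT sperm.

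Mitochondrial tRNA, 28S rRNA and piRNA were among the leading annotated relatives of unmatched reads. Mitochondrial tRNA was the relative of 46.04% and 38.8% of related reads in KO and 50.9% and 26.9% in WT sperm, and 28S rRNA of 11.9% and 15.7% in KO and 15.9% and 36.2% in WT sperm. Reads labelled piRNA were the relative of 13.7% and 10.3% in KO and 6.48% and 8.24% in WT sperm, and reads labelled DNA of 7.83% and 13.6% in KO and 7.26% and 4.73% in WT sperm. WT replicate 2 had the lowest share of mitochondrial tRNA and the highest of 28S rRNA, and was also the library with the most 28S rRNA. The numbers were also set against the reads of the class itself. Per 100 reads of 28S rRNA there were 2.56 and 2.47 related unmatched reads in KO and 2.81 and 2.01 in WT sperm. Per 100 reads of mitochondrial rRNA there were 13.2 and 12.4 in KO and 12.3 and 13.3 in WT sperm. Mitochondrial tRNA had 9.73 and 9.39 per 100 in KO and 11.1 and 15.02 in WT sperm. Nuclear tRNA had 0.68 and 0.78 per 100 in KO and 1.09 and 1.5 in WT sperm. In both tRNA classes the 2 KO libraries lay below the 2 WT libraries, and in the rRNA classes given here the groups overlapped. Reads labelled DNA lay the other way, with 3.48 and 3.25 per 100 in KO and 3.14 and 2.52 in WT sperm. Other classes are not listed here, and these ratios were not tested.

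All 10 leading unmatched sequences were 1 substitution from a mitochondrial tRNA-His or 28S rRNA read. U1 carries C27A against the tRNA-His read of 27 bases, with positions counted from 1 at the 5′ end and the annotated base first, and had 6149 and 4734 reads in KO and 2066 and 1117 in WT sperm. The annotated read had 53459 and 35229 reads in KO and 17455 and 9107 reads in WT sperm. U1 was thus at 11.5 and 13.4 per 100 reads of the annotated form in KO and 11.8 and 12.3 in WT sperm. The ratio stayed within a narrow range while the reads differed several-fold between libraries, and the groups overlapped.

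Substitutions at the last base set the tRNA-His variants apart from the 28S rRNA variants. All substitutions of the 27-base tRNA-His read together came to 12.9 and 14.6 per 100 in KO and 13.5 and 13.6 in WT sperm, and without the last base to 1.38 and 1.20 in KO and 1.65 and 1.35 in WT sperm. For the 28S rRNA read the sum was 2.65 and 2.43 per 100 in KO and 2.97 and 2.01 in WT sperm, with no more than 0.11% of it at the last base in any library. U3, with C11A, reached 0.80 and 0.82 per 100 in KO and 0.86 and 0.49 in WT sperm. U4, with A23C, reached 0.40 and 0.35 in KO and 0.43 and 0.31 in WT sperm. U10, with A18C, reached 0.13 and 0.13 in KO and 0.16 and 0.14 in WT sperm.

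Exchanges between A and C made up most substitution reads. Away from the last base, A-to-C changes were 35.1% and 35.2% of substitution reads in KO and 39.5% and 39.3% in WT sperm, and C-to-A changes were 33.9% and 32.1% in KO and 33.4% and 31.5% in WT sperm. At the last base C-to-A changes were 73.0% and 72.5% of reads in KO and 74.6% and 46.7% in WT sperm. U1 alone held 6149 of 6901 and 4734 of 5418 of these reads in KO and 2066 of 2272 and 1117 of 1691 in WT sperm. Counted over distinct sequences, C-to-A was 19.4% and 15.5% of last-base changes in KO and 23.9% and 15.2% in WT sperm. A first U, written T in the tables, was rarer in unmatched than in matched reads of 25 to 31 nucleotides, at 10.5% and 11.1% in KO and 11.5% and 10.4% in WT sperm. In matched reads of that length it was 29.7% and 29.96% in KO and 29.0% and 28.1% in WT sperm, and the KO libraries lay above the WT ones by 1.24 points (exact permutation p = 0.333). Reads labelled piRNA of that length began with U in 9.75% and 15.2% of cases in KO and 16.7% and 14.7% in WT sperm, nearer to the unmatched reads. Counted over distinct sequences, a first U was found in 29.8% and 29.9% of matched ones in KO and 29.5% and 28.1% in WT sperm, in 22.03% and 22.5% of unmatched ones in KO and 24.3% and 24.6% in WT sperm, and in 29.7% and 29.9% of those labelled piRNA in KO and 28.02% and 27.4% in WT sperm.

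Repeat tails and A tails were found at the 3′ end of unmatched reads, and both were picked out after the values had been seen. The first was an A, C, C repeat of at least 9 bases at the 3′ end. Such reads numbered 151 and 138 in KO and 169 and 966 in WT sperm, which is 215 and 185 RPM in KO and 820 and 1374 in WT sperm. Both KO libraries lay below both WT libraries, with means of 200 ± 21.2 in KO and 1097 ± 391 in WT sperm (SD, n = 2 each; exact permutation p = 0.333, the smallest possible). As a part of unmatched unannotated reads they were 0.33% and 0.35% in KO and 1.05% and 3.06% in WT sperm. Matched unannotated reads ended so in at most 4 reads of a library, and annotated reads in at most 5.

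The repeat tails were mostly on reads that shared the start of the tRNA-His fragment. Those on reads beginning with the first 18 bases of the tRNA-His read were 90.1% and 84.8% of them in KO and 89.3% and 86.7% in WT sperm. Per 1000 reads labelled mitochondrial tRNA-His there were 1.02 and 1.26 in KO and 3.76 and 23.4 in WT sperm. The highest value was that of WT replicate 2, the library richest in 28S rRNA and poorest in this fragment, and the part of that make-up in the difference was not tested. WT replicate 1, the shallowest library, was also above both KO libraries. Tails of 10 bases or more on the exact 27-base fragment had 64 and 45 reads in KO and 32 and 236 in WT sperm. Per 1000 reads of that fragment this was 1.20 and 1.28 in KO and 1.83 and 25.9 in WT sperm, so WT replicate 1 was then much nearer to the KO libraries. On the exact 27-base fragment, tails of 10, 13 and 16 bases had 137, 173 and 30 reads over the 4 libraries, while those of 11, 12, 14 and 15 bases had 1, 21, 4 and 8. Among tails of 10 bases or more, the frequent lengths were thus 3 bases apart. Tails of 6, 7 and 8 bases had only 2, 1 and 1 reads. U2 and U9 read as the same fragment with the first 1 and 3 bases of the tail. Both were counted as A28C, of the annotated reads of 28 and 30 bases, and whether they belong with the repeat tails was not tested. U2 had 1037 and 651 reads in KO and 316 and 670 in WT sperm. That is 33.2 and 33.7 per 100 reads of the 28-base annotated read in KO and 33.3 and 84.2 in WT sperm. The second tail was a run of at least 6 A, on 1.54% and 1.73% of unmatched reads in KO and 1.64% and 1.09% in WT sperm, with overlapping groups.

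Of the unmatched reads, 35.5% and 34.1% in KO and 41.9% and 30.6% in WT sperm had no relation to another sequence by these rules. Single-read sequences were 83.3% and 77.3% of these in KO and 90.0% and 82.8% in WT sperm. A few such sets were uneven between libraries of 1 genotype. One of 7 sequences had 652 and 43 reads in KO and 5 and 48 in WT sperm, and one of 8 sequences had 37 and 1 reads in KO and 170 and 1 in WT sperm.

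Levels of single sequences were compared between KO and WT sperm with edgeR's quasi-likelihood test over all 2877 sequences, annotated ones included, that had enough reads. Only 384 unannotated sequences entered, 108 matched and 276 unmatched, and they held 25.5% of the unannotated reads. Of them 1 was higher and 1 was lower in KO at an adjusted p under 0.05. That is 0.260% of the unannotated sequences tested in each direction, while over all sequences tested 0.348% were called higher and 0.0695% lower. Both unannotated sequences called passed the read filter only through the group where they were higher. For them the filter was thus not independent of the difference tested. At an unadjusted p under 0.05, 32 unannotated sequences were higher and 43 lower in KO, of 151 higher and 172 lower over all 2877 tested. With libraries scaled by their totals in place of TMM factors, the unannotated counts were 41 higher and 15 lower, of 228 higher and 73 lower over all tested. The side with more sequences thus depended on the scaling, among unannotated sequences and over all tested. The median log2 fold change was 0.33 for the matched and -0.39 for the unmatched sequences tested, and 0.09 over all sequences tested.

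The sequence called higher was an unmatched one of 20 nucleotides with no relation to an annotated read. It had 217 and 14 reads in KO and 0 and 0 in WT sperm (adjusted p = 0.0222). Its levels were 309 and 18.7 RPM in KO. With reads pooled within each group, it was at least 48.3-fold above a floor of 3 reads over the 2 WT libraries, or 3.30 RPM. That fold does not describe KO replicate 2, since nearly all reads of the sequence came from KO replicate 1. Without that library it was not tested, and no unannotated sequence was then called higher.

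The sequence called lower was the tailed tRNA-His fragment shown above, with a repeat tail of 16 bases. It had 0 and 1 reads in KO and 12 and 17 reads in WT sperm (log2 fold change -5.75 ± 1.27 SE, adjusted p = 0.0284). With reads pooled within each group, and 1 read in KO, the ratio KO over WT was 0.0216. Its exact 95% counting interval of 0.00053 to 0.130 leaves out the spread between libraries. The annotated fragment it extends made up 7.60% and 4.72% of KO and 8.47% and 1.3% of WT reads, so its own level overlapped between the groups. The call was lost without either KO library (adjusted p = 0.996 and log2 fold change -5.01 without replicate 1, 0.786 and -7.48 without replicate 2). Nor did it hold under DESeq2 (adjusted p = 0.068), limma-voom (0.356), scaling by library totals (0.156) or no filter (0.631). DESeq2 called 2 other unannotated sequences lower, both of them tRNA-His fragments with a repeat tail. They had 4 and 12 reads in KO and 9 and 149 in WT sperm, and 4 and 17 reads in KO and 28 and 85 in WT sperm.

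Fold changes moved with the libraries used. Without WT replicate 1, the shallow library, the median log2 fold change was 0.81 for unannotated and 0.47 for annotated sequences tested. Without WT replicate 2 these medians were -0.15 and 0.42. In each of these fits WT was a single library, assumed to vary as the KO pair does. Calls from them are therefore not given, and the medians describe that library against KO. With the reads summed by length, annotation and genome match into 104 bins, edgeR called 0 bins (0% of 104), DESeq2 called 0, and 0 of the 52 unannotated bins had an unadjusted p under 0.05. In all 26 matched unannotated bins the fitted log2 fold change was positive, from 0.31 at 44 nucleotides to 1.08 at 21 nucleotides, beside a median SE of 0.66. The bins come from the same 4 libraries, so their shared sign is not independent evidence. In every matched bin of 28 to 45 nucleotides WT replicate 1 lay above KO replicate 1, so the groups overlapped. At 28 nucleotides, for example, they were at 4398 and 3901 RPM. The 26 unmatched bins ran from -0.79 at 26 nucleotides to 0.33 at 21 nucleotides, 11 of them positive. Over all 104 bins 68 were positive.

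Promoter windows in RefSeq gave a place to few matched sequences. Of the 101982, 838 lay within one of 32851 windows of the GRCm38.p6 assembly around gene starts, and these held 0.635% of matched unannotated reads. At a single place were 669, of which 355 read along the gene and 286 against it. The leading one lay in the sense direction in the window of Mir17hg, the host gene of the mir-17 microRNA cluster, at chr14:115044396-115044436. It is shown because no other window sequence had more reads.
Mir17hg window: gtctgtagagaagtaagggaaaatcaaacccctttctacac

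It had 12 and 44 reads in KO and 5 and 5 reads in WT sperm. By library size, the 12 reads in KO replicate 1 were 17.1 RPM and the 5 in WT replicate 1 were 24.3 RPM, so the groups overlapped. No unannotated sequence lay in the sense direction within one of 1005 microRNA hairpins, and 3 sequences with 6 reads in all lay there in antisense.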

How the data were processed

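Each sperm table lists distinct small RNA sequences with length, read number, genome match and annotation. The read numbers are the authors' deposited counts, per the file headers, and were used as deposited. The submitters' processing notes name DESeq2 1.42.1, RSEM 1.3.1, the aligner STAR 2.6.1c and Trim Galore 0.4.5, and the builds mm10 and GRCm38, with no role for these tables. The tool and lists behind the annotation are not given in the sources used here.

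Library totals ranged from 205993 to 746812 reads, and the lowest limits the rarest sequences. Shares were compared by an exact permutation test over 4 libraries. Equal-depth values are hypergeometric expectations. Sequences and length bins were tested with edgeR 4.0.16 (R 4.3.3; quasi-likelihood, filterByExpr, TMM factors for sequences, Benjamini-Hochberg over all tested), with DESeq2 1.42.0, limma 3.58.1, other scaling and filters, a replicate block and each library left out as alternatives. Self-tests on simulated counts were run. The sequences named were the 10 matched and 10 unmatched of highest mean RPM and those called. The members, lists and tests were chosen with earlier results of these data known. Unmatched sequences without an annotated relative are not printed. RefSeq windows and hairpins came from tables of GRCm38.p6. The oocyte tables were not used.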

Additional observations from a re-analysis of the deposited data

How the results depend on the processing

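With 2 libraries a group, no share could pass an exact test, and the single-sequence calls rest on 1 or 2 libraries. The KO minus WT difference in unannotated share was -1.72 points without rRNA reads and 0.169 to 8.82 with 1 library left out. Leaving out 1 library gave -3.41 to 6.70 points for 20 to 24 nucleotides, -2.44 to 1.39 for 25 to 31, -5.27 to 3.03 for 32 to 45, -0.729 to 0.387 for the first-U share of unmatched reads and -0.0054 to 0.541 for A tails. Reversed signs were also 1.40 points (25 to 31 nucleotides, distinct sequences), 1.58 (first U, unmatched, at least 2 reads) and 2.26 (single-read share, drawn on unannotated reads). The cause was not tested. Unannotated sequences called higher and lower numbered 0 and 1 with RLE factors, 0 and 0 with library totals, 0 and 2 with DESeq2, 0 and 0 with limma-voom, 1 and 0 with no filter, 11 and 4 with 10 reads in 2 libraries, and 0 to 41 and 0 to 69 with 1 library left out. A block on replicate number gave 1 and 1. Deviations of same-numbered libraries from their group means correlated at -0.07, a single value that cannot show whether such libraries were prepared together. The matched share, related share, first-U share of matched reads, distinct sequences at equal depth, repeat tails and the end at position 45 kept their sign under every alternative. For the matched share, the first-U share of matched reads, repeat tails and position 45 the groups did not overlap, so leaving out 1 library could not reverse them. Position 45 also kept its sign for 5 start positions taken singly. At start position 3, however, the groups overlapped, with 0.93% and 6.23% in KO and 1.72% and 0% in WT sperm.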
